A study of Homo sapiens with 7 samples.

Results

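The 37 genes described here encode the chains of 2 families of adhesion proteins, 26 integrin chains (18 alpha and 8 beta) and 11 laminin chains. They were taken by name from an expression table of 20423 RefSeq genes, and each of the 37 names had a value in it. Their levels were measured in HCT116, an established human colon adenocarcinoma cell line, by sequencing of polyA RNA in 1 library. The same series holds transposon insertions made by the piggyBac transposase (WT_PB, 3 libraries) or by that enzyme fused to SP1 (SP1_PB, 2 libraries), and 1 list of SP1 ChIP-seq peaks. The labels give the same culture conditions for all samples, with G418 added to select for transposition, and do not say whether the cells used for RNA carried a transposon. Levels are in RPKM, read counts scaled by transcript length and by the number of mapped reads. The unit accounts for length, so levels of different genes can be set side by side, although each rests on the transcript models used. With 1 library there is no spread between replicates, no value has an error, and no difference was tested. The depth of the library is unknown from the values used here.

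Integrins are receptors in the cell membrane, each made of an alpha and a beta chain, that bind proteins of the extracellular matrix or of other cells outside and connect to the actin or keratin cytoskeleton inside. Neither chain reaches the cell surface without a partner, so the chains a cell makes limit the receptors it can have. Laminins are large matrix proteins built of an alpha, a beta and a gamma chain. They are a main component of basement membranes, the sheets on which epithelia such as that of the colon rest, and a laminin is numbered by its alpha, beta and gamma chains.

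The cells had high RNA levels of a few integrin and laminin chains, led by ITGA3, LAMA5, ITGB4 and ITGB1, and levels under 1 RPKM of 17 others. A gene was counted as present at 1 RPKM or more, a convention, and 20 of the 37 genes (54.1%) reached it, beside 57.0% of all genes in the table. The median of the 37 genes was 1.1 RPKM, or 1.07 on the log2(RPKM + 1) scale, beside 1.91 RPKM and 1.54 over all genes. At other levels the share of the 37 genes and that of all genes were 56.8% against 62.5% at 0.5 RPKM, 43.2% against 49.4% at 2 RPKM, 32.4% against 36.0% at 5 RPKM and 27.0% against 24.4% at 10 RPKM. At 10 RPKM or more stood 10 of the 37 genes, and 10 more lay between 1 and 10 RPKM. Another 14 had a value above 0 and below 1 RPKM. ITGA4, ITGA8 and LAMA1 were listed at 0 (8.11%, beside 16.6% of all genes). A listed 0 can be a failed estimate, because YWHAZ, which most cells express, was also listed at 0. Closest above the level of 1 RPKM were ITGAX at 1.07, ITGB7 at 1.1, LAMA3 at 1.19 and ITGAE at 1.97, and closest below it were LAMA2 at 0.877 and ITGA9 at 0.433.

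The library had most of the epithelial markers listed. For the counts that follow, 57.0% of all genes reached 1 RPKM. Of 8 epithelial markers 7 reached 1 RPKM, among them the keratins KRT19 at 543, KRT8 at 378 and KRT18 at 268 RPKM and the adhesion protein EPCAM at 79.5 RPKM, while VIL1, a protein of the intestinal brush border, stood at 0.0313 RPKM. Of 7 leukocyte markers none reached 1 RPKM, the highest being CD14 at 0.218, and PTPRC, CD3E, LCP2 and CD48 were listed at 0. None of 5 endothelial markers reached 1 RPKM. Of 5 fibroblast markers with a value only COL1A1 did, at 14.5 RPKM, the platelet marker GP1BA stood at 3.26 RPKM, and of 3 muscle markers with a value ACTA1 and DES did, at 22.8 and 2.35 RPKM.

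**Figure D1:**
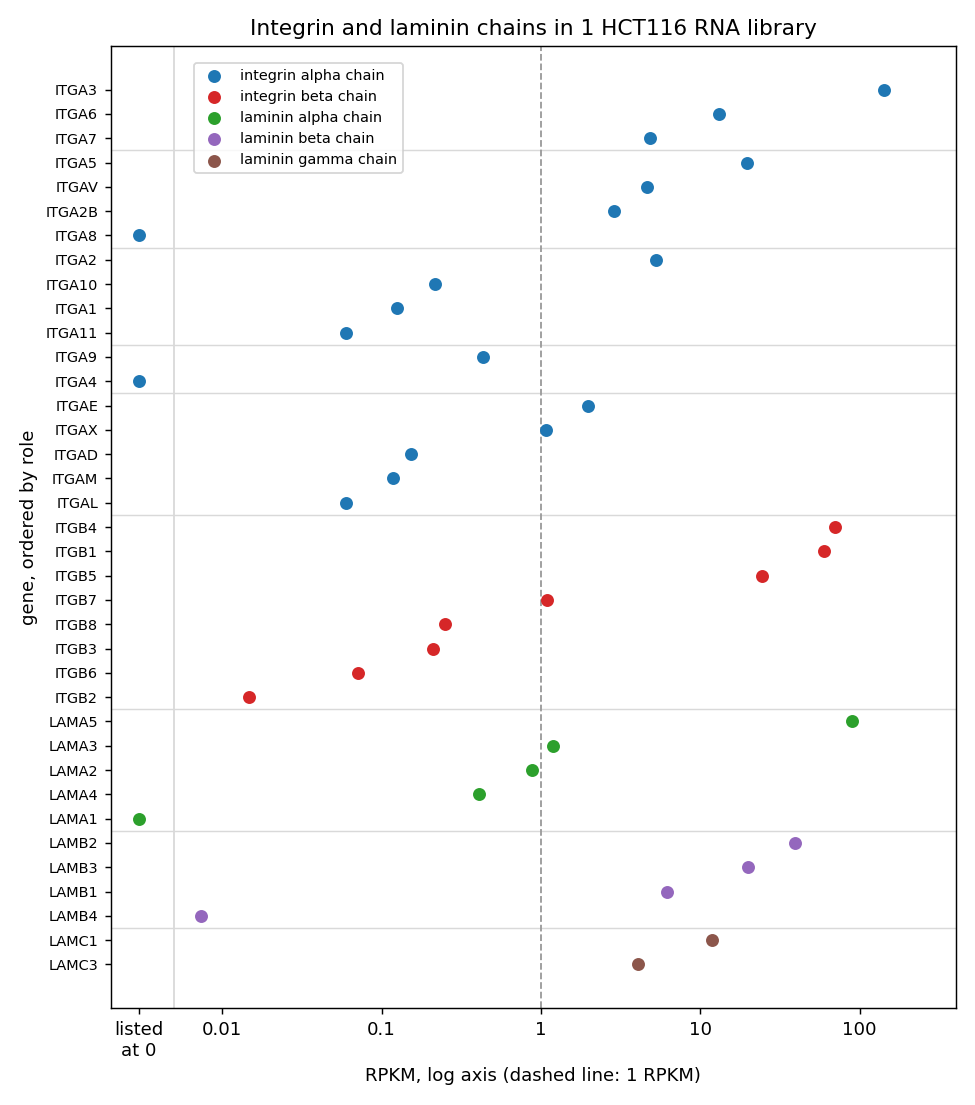
RNA level in RPKM on a log axis (horizontal) of the 37 integrin and laminin chains (vertical, grouped by role), 1 point per gene from 1 library, with the dashed line at 1 RPKM and genes listed at 0 drawn left of the grey line. ITGA3 at 142 RPKM, LAMA5 at 89.6, ITGB4 at 70.2 and ITGB1 at 59.6 lie farthest to the right, and 17 genes lie left of the dashed line.

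The promoters of these genes differed in GC boxes, the sequence GGGCGG that SP1, the factor studied in this series, is known to bind. For 26 of the 37 genes a promoter was found in the RefSeq table of GRCh38.p14, and the 250 bases before the start site were searched on both strands, overlapping matches included. The genes without an entry were ITGA3, ITGA7, ITGA9, ITGAD, ITGAL, ITGAX, ITGB2, ITGB3, ITGB4, LAMA1 and LAMC3. Where a gene had several start sites the most upstream was used. LAMA5 and ITGB1 are shown as the highest genes with an entry, LAMB4 as the lowest above 0 RPKM, and ITGA8 as a gene that has the motif and was listed at 0. All are printed 5′ to 3′ on the strand of the gene, ending at the base before the start site, with GC boxes on either strand in capitals. They come from chr20:62367313-62367562 for LAMA5, chr10:32958231-32958480 for ITGB1, chr7:108130362-108130611 for LAMB4 and chr10:15719923-15720172 for ITGA8, each on the minus strand of GRCh38.p14.
LAMA5: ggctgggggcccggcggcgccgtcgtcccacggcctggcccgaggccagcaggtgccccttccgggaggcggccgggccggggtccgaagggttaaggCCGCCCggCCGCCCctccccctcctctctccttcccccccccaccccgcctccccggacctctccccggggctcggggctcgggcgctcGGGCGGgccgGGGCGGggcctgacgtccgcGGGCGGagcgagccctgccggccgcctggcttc
ITGB1: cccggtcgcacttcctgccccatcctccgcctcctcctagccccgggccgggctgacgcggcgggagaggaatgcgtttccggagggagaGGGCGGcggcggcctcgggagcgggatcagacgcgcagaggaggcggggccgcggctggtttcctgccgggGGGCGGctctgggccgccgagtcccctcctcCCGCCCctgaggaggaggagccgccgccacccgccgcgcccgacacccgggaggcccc
LAMB4: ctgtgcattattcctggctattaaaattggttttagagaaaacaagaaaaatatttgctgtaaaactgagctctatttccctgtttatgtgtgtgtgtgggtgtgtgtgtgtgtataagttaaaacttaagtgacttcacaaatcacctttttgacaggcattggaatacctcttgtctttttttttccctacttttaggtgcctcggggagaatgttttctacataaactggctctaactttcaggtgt
ITGA8: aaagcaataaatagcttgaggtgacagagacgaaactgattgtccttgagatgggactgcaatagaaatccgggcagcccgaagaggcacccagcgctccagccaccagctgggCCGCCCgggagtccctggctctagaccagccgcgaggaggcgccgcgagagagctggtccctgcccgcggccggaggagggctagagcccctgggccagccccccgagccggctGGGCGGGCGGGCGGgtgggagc

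LAMA5 held 5 GC boxes, the most among the 26 genes, and 82.8% of its 250 bases were G or C. ITGB1 held 3, with 78.4% G or C. LAMB4 held none, with 36.4% G or C and a single CpG. ITGA8 held 4, and 3 of these overlap in a run just before the start site. A GC box was found in 10 of 15 genes at 1 RPKM or more (66.7%) and in 3 of 11 genes below it (27.3%). Those 11 include ITGA4 and ITGA8, listed at 0, which can be a failed estimate. Over all 12634 genes with both an entry and a value the shares were 70.1% of 7879 and 39.9% of 4755, and 58.7% in all. The integrin and laminin genes thus showed a difference in the same direction as genes at large, and nothing particular to them is read from it.

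Single genes departed from this both ways. ITGA6 at 13.1 RPKM and ITGAV at 4.63 RPKM had no GC box in the window, as did ITGA2B, ITGAE and ITGB7 at lower levels. ITGB8 and ITGAM had 2 each at 0.249 and 0.118 RPKM. Other genes went the same way as the difference. ITGA4, listed at 0, which can be a failed estimate, had no GC box although 72.8% of its window was G or C, with 25 CpG. LAMB1 and ITGA2, at 6.17 and 5.24 RPKM, each had 4, and LAMC1 at 11.9 RPKM had 3. A match describes letters and shows no binding, and SP1 peaks or insertions at these promoters were not analysed here, since they are mapped on hg18 and no gene positions of that build were used.

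**Figure D2:**
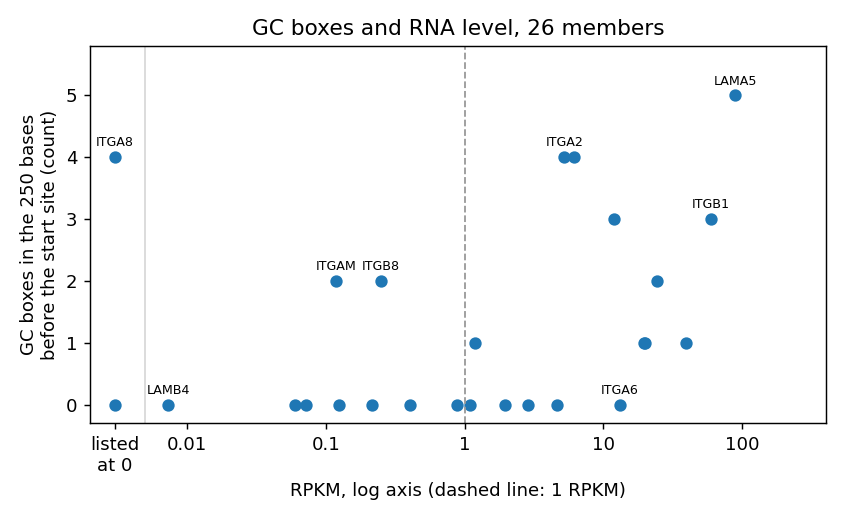
Number of GC boxes in the 250 bases before the start site (vertical) against RNA level in RPKM on a log axis (horizontal) for the 26 genes with a promoter entry, 1 point per gene. LAMA5 with 5 and ITGB1 with 3 lie at the upper right, ITGA8 has 4 and was listed at 0, and 8 of the 11 genes left of the dashed line at 1 RPKM have none.

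Alpha chains that bind laminin were the highest group of integrin alpha chains by sum and by median, with most of the sum from ITGA3. ITGA3, the alpha chain of a receptor for laminin-511, stood at 142 RPKM, rank 340 of 20423 genes and the highest of the 37 genes. ITGA6, which pairs with ITGB1 or, in hemidesmosomes, with ITGB4, stood at 13.1 RPKM, and ITGA7, best known from muscle, at 4.85 RPKM. ITGA3 was thus 10.8 times as high as ITGA6 and 29.2 times as high as ITGA7, and made up 72.1% of the summed RPKM of the 18 alpha chains. ITGA6 and ITGA7 were both lower than ITGA5, described next, at 19.8 RPKM. The value of ITGA7 is uncertain: in RefSeq its span overlaps those of BLOC1S1, at 79.0 RPKM, and TMT1B (METTL7B in the table used here), at 6.62 RPKM. Whether reads were counted by strand is not stated, so reads of overlapping genes may not have been separated.

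Alpha chains that recognise the RGD sequence in fibronectin, vitronectin and other ligands came next. ITGA5, the alpha chain of the fibronectin receptor, stood at 19.8 RPKM. ITGAV, which pairs with 5 beta chains, stood at 4.63 RPKM, so ITGA5 was 4.28 times as high. ITGA2B, the platelet fibrinogen receptor chain, stood at 2.89 RPKM, in a library where GP1BA, a platelet marker, stood at 3.26 RPKM. ITGA8 was listed at 0.

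Of the 4 alpha chains that bind collagen only ITGA2 was present. It stood at 5.24 RPKM, against 0.216 for ITGA10, 0.125 for ITGA1 and 0.0599 for ITGA11. ITGA1 and ITGA2 lie near each other, with PELO as the only coding gene between their starts in RefSeq. ITGA2 was 41.8 times as high as ITGA1, a ratio that rests on the low value of ITGA1. PELO, inside the span of ITGA1, stood at 14.3 RPKM.

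Alpha chains of leukocyte integrins were low or near the limit. ITGAE, known from lymphocytes within epithelia, where it binds E-cadherin, stood at 1.97 RPKM, and ITGAX, a chain of dendritic cells and macrophages, at 1.07 RPKM. ITGAD, ITGAM and ITGAL stood at 0.153, 0.118 and 0.0595 RPKM. ITGAX lies between ITGAM and ITGAD on the chromosome, its sequence is related to theirs, and it was the only one of these 3 neighbours above 1 RPKM. The span of ITGAE overlaps HASPIN (GSG2 in the table), a kinase gene at 5.00 RPKM, and P2RX5, at 3.65 RPKM. The part of these genes in its value was not tested. ITGA9 stood at 0.433 RPKM and ITGA4, a chain of lymphocyte homing receptors, was listed at 0.

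Among the beta chains 3 stood far above the rest. ITGB4, the beta chain of hemidesmosomes with a long tail that binds plectin, stood at 70.2 RPKM. ITGB1, the partner of 12 alpha chains, stood at 59.6 RPKM, and ITGB5, a partner of ITGAV in a vitronectin receptor, at 24.5 RPKM. They made up 45.0%, 38.2% and 15.7% of the summed RPKM of the 8 beta chains. ITGB7 followed at 1.1 RPKM, in an overlap with ZNF740, at 12.2 RPKM. ITGB8, ITGB3, ITGB6 and ITGB2 stood at 0.249, 0.210, 0.0716 and 0.0146 RPKM. ITGB6, which with ITGAV activates latent TGF-beta in epithelia, and ITGB2, the common beta chain of 4 leukocyte integrins, were thus close to 0. The span of ITGB4 overlaps that of GALK1, at 30.6 RPKM.

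Of the 24 integrin pairs known in mammals 9 had both chains at 1 RPKM or more. In 5 pairs only the alpha chain and in 7 only the beta chain reached that level, and in 3 neither did. The presence of both RNAs is what a pair needs at the least, and neither protein nor pairing was measured. Ordered by the lower of their chains, ITGA3-ITGB1 led at 59.6 RPKM, followed by ITGA5-ITGB1 at 19.8 RPKM and by ITGA6-ITGB1 and ITGA6-ITGB4, both at the 13.1 RPKM of ITGA6. ITGA2-ITGB1 followed at 5.24, ITGA7-ITGB1 at 4.85 and ITGAV-ITGB1 and ITGAV-ITGB5 at the 4.63 RPKM of ITGAV. Among these chains ITGA7 and ITGB4 overlap other genes, and the value of ITGA7 is uncertain. ITGAE-ITGB7 came last at 1.1 RPKM, with both of its chains in overlaps with other genes, and at a level of 2 RPKM it was no longer counted.

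In 7 of the 9 pairs the alpha chain was the lower one. The exceptions were ITGA3-ITGB1, where ITGA3 was 2.38 times as high as ITGB1, and ITGAE-ITGB7. The pairs are not independent, since 6 of the 9 share ITGB1, and ITGA6 and ITGAV are each in 2 of them. The 12 alpha chains that can pair with ITGB1 summed to 190 RPKM, 3.19 times the level of ITGB1, and most of that sum was ITGA3. ITGB4 was 5.35 times as high as ITGA6, its only alpha partner, which can also pair with ITGB1. ITGB5 was 5.29 times as high as ITGAV.

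The pairs that did not reach the level were of several kinds. In all 4 pairs of ITGB2 that chain was below 1 RPKM. In ITGAX-ITGB2 the alpha chain was 73.2 times as high as the beta chain, a ratio to a value close to 0 (0.0146 RPKM). ITGA2B-ITGB3, the fibrinogen receptor, had 2.89 RPKM of its alpha chain and 0.210 RPKM of its beta chain. Of the 5 pairs of ITGAV those with ITGB3, ITGB6 and ITGB8 had the beta chain below 1 RPKM. Those of ITGB1 with ITGA1, ITGA4, ITGA8, ITGA9, ITGA10 and ITGA11 had the alpha chain below 1 RPKM, as did ITGA4-ITGB7. ITGA4 and ITGA8 were listed at 0, which can be a failed estimate, so their pairs are undetermined.

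**Figure D3:**
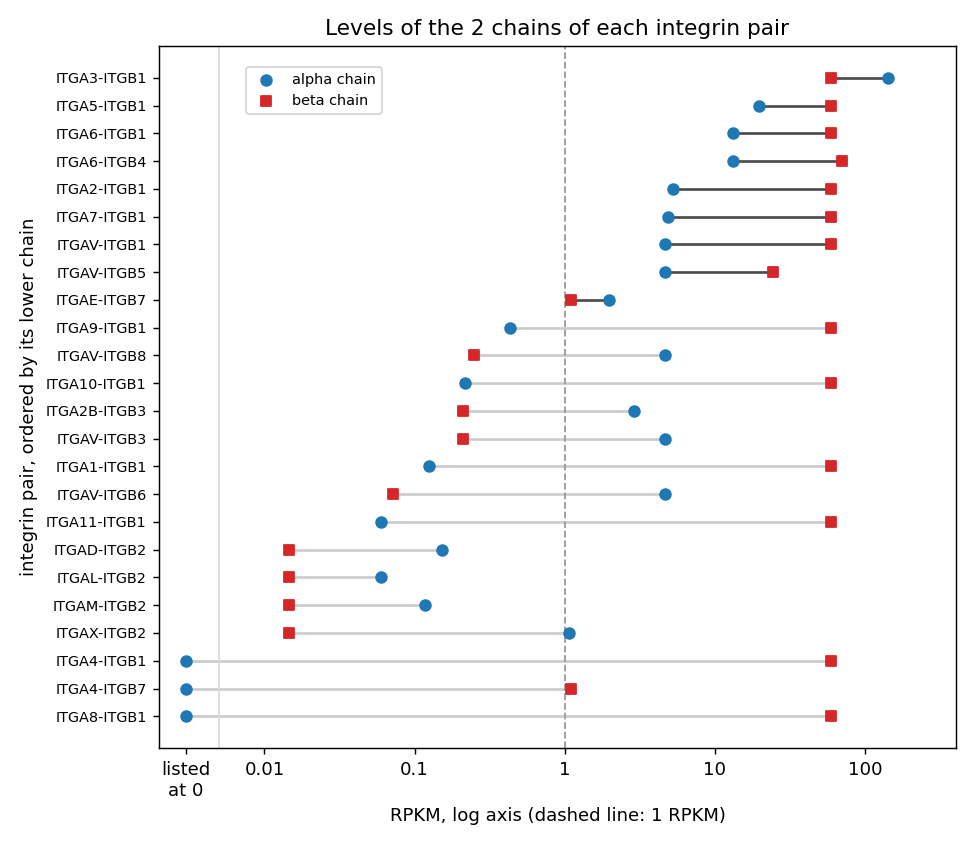
RNA level in RPKM on a log axis (horizontal) of the alpha chain (circles) and the beta chain (squares) of the 24 integrin pairs (vertical), ordered by the lower chain, from 1 library, with the dashed line at 1 RPKM, genes listed at 0 drawn left of the grey line and dark lines for pairs with both chains at 1 RPKM or more. The 9 pairs with dark lines run from ITGA3-ITGB1, with 142 and 59.6 RPKM, to ITGAE-ITGB7, with 1.97 and 1.1 RPKM.

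Among laminin alpha chains the cells had mainly LAMA5. This alpha chain of the laminins of mature epithelial basement membranes stood at 89.6 RPKM, rank 578 of all genes, and made up 97.3% of the summed RPKM of the 5 laminin alpha chains. LAMA3, an alpha chain of epithelia, stood at 1.19 RPKM, so LAMA5 was 75.6 times as high. LAMA2, the chain of muscle and nerve basement membranes, stood at 0.877 RPKM and LAMA4, a chain of vessel walls, at 0.406 RPKM. LAMA1, the chain of early embryonic basement membranes, was listed at 0.

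Of the 4 beta chains 3 were present (75.0%, beside 57.0% of all genes), and with 4 genes nothing is read from this share. LAMB2 stood at 39.2 RPKM, LAMB3, a beta chain of epithelia, at 20.1 RPKM and LAMB1 at 6.17 RPKM, while LAMB4 stood at 0.00732 RPKM. LAMB2 was 6.36 times as high as LAMB1, and LAMB3 was 16.9 times as high as LAMA3. LAMB1 and LAMB4 are next to each other among coding genes in RefSeq, with 6.17 and 0.00732 RPKM. LAMB2 has a related pseudogene, LAMB2P1 (LAMB2L in the table), listed at 1.03 RPKM, and reads of LAMB2 and its copy may be hard to tell apart.

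Both gamma chains among the 37 genes were present, a level that 57.0% of all genes reached, and with so few genes nothing is read from this. LAMC1, which is part of 10 of the 13 trimers considered, stood at 11.9 RPKM and LAMC3 at 4.07 RPKM. LAMC1 was 2.91 times as high as LAMC3. LAMA5 was 7.56 times and LAMB2 3.31 times as high as LAMC1.

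Of the 13 laminin trimers considered, those made of chains among the 37 genes, 5 had every chain at 1 RPKM or more. Laminin-521 led, with 89.6 RPKM of LAMA5, 39.2 RPKM of LAMB2 and 11.9 RPKM of LAMC1 as its lowest chain. Laminin-511 followed, with LAMB1 at 6.17 RPKM as the lowest, and laminin-523, known from the retina, with LAMC3 at 4.07 RPKM. These 3 trimers share LAMA5, and they were the only ones that also passed 2 RPKM.

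Laminin-311 and laminin-321 passed 1 RPKM by the margin of LAMA3 alone, at 1.19 RPKM. The value of LAMA3 was deposited as a single number, so its short and long transcripts, which start at different promoters, cannot be told apart here. The promoter window of LAMA3 found in RefSeq, 1 of its possible starts, held 1 GC box. In the other 8 trimers only the alpha chain, LAMA1, LAMA2 or LAMA4, was below 1 RPKM. LAMA1 was listed at 0, which can be a failed estimate, so its trimers are undetermined. At a level of 0.5 RPKM the 3 trimers of LAMA2 were counted as well.

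**Figure D4:**
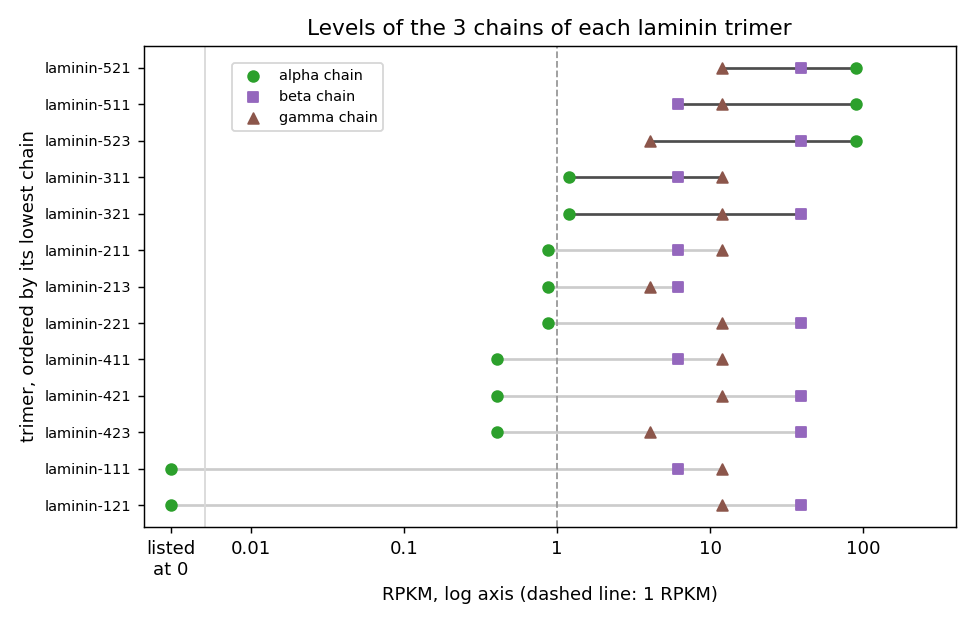
RNA level in RPKM on a log axis (horizontal) of the alpha (circles), beta (squares) and gamma chain (triangles) of the 13 laminin trimers (vertical), ordered by the lowest chain, from 1 library, with the dashed line at 1 RPKM, genes listed at 0 drawn left of the grey line and dark lines for trimers with all chains at 1 RPKM or more. In laminin-521, laminin-511 and laminin-523 the alpha chain LAMA5 is the highest at 89.6 RPKM, and in the other 10 trimers the alpha chain is the lowest.

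Of the receptors of laminin other than integrins 4 of 4 listed reached 1 RPKM, a level that 57.0% of all genes reached, and their median was 27.1 RPKM beside 1.91 RPKM over all genes. The integrins best known as laminin receptors, ITGA3-ITGB1, ITGA6-ITGB1, ITGA6-ITGB4 and ITGA7-ITGB1, were all among the 9 pairs. Of their chains ITGA7 and ITGB4 overlap other genes, and the value of ITGA7 is uncertain. BCAM, which binds LAMA5, stood at 45.6 RPKM, the heparan sulfate proteoglycans SDC4 and SDC1 at 39.9 and 10.8 RPKM and dystroglycan (DAG1) at 14.4 RPKM.

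Of the 4 genes listed for hemidesmosomes, the junctions through which ITGA6-ITGB4 holds keratin filaments, 3 reached 1 RPKM (75.0%, beside 57.0% of all genes), and with 4 genes nothing is read from this share. CD151, a membrane protein that binds ITGA3 and ITGA6, stood at 211 RPKM, 1.49 times the level of ITGA3. PLEC, the plectin that links ITGB4 to keratins, stood at 86.6 RPKM and DST at 8.79 RPKM. COL17A1, a collagen of hemidesmosomes in skin, stood at 0.581 RPKM.

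Proteins that act on the inner side of integrins stood at 1 RPKM or more in 20 of 21 cases (95.2%, beside 57.0% of all genes), with a median of 18.5 RPKM beside 1.91 RPKM over all genes. The actin crosslinkers ACTN4 and FLNA stood at 158 and 97.5 RPKM, and the adaptor paxillin (PXN) at 104 RPKM. Talin 1 (TLN1), which switches integrins on by binding the beta tail, stood at 24.2 RPKM, against 0.784 RPKM for TLN2, the lowest of the list. Of its helpers, the kindlins, FERMT1 stood at 10.0, FERMT2 at 5.14 and FERMT3, the form of blood cells, at 1.65 RPKM.

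Of 12 partners of laminin in the basement membrane 6 reached 1 RPKM (50.0%), a share near the 57.0% of all genes, and their median was 0.884 RPKM beside 1.91 RPKM. AGRN, a proteoglycan that binds laminin, stood at 42.6 RPKM, HSPG2 (perlecan) at 10.7 RPKM and COL18A1 at 10.8 RPKM. The collagen IV chains COL4A1 and COL4A2, which form the usual network of basement membranes, stood at 0.0197 and 0.0137 RPKM, while COL4A5 stood at 4.48 RPKM. COL4A3, COL4A6 and COL4A4 stood at 1.02, 0.75 and 0.747 RPKM. The nidogens, which link laminin to collagen IV, stood at 0.0425 RPKM for NID2, and NID1 was listed at 0.

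Of 12 other integrin ligands with a value 5 reached 1 RPKM (41.7%, beside 57.0% of all genes), with a median of 0.751 RPKM beside 1.91 RPKM. CDH1, the E-cadherin bound by ITGAE-ITGB7, stood at 17.0 RPKM, COL1A1 at 14.5 RPKM and fibronectin (FN1), the ligand of ITGA5-ITGB1, at 3.81 RPKM. COL1A2, the partner chain of COL1A1 in type I collagen, stood at 0.0277 RPKM. COL3A1, the chain of type III collagen, was the lowest of the list at 0.00781 RPKM, and vitronectin (VTN), a ligand of ITGAV-ITGB5, at 0.128 RPKM. Of 6 genes around the activation of TGF-beta by integrins of ITGAV only TGFB1 reached 1 RPKM, at 32.4 RPKM (16.7%, beside 57.0% of all genes), and LRRC33 was listed at 0.

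**Figure D5:**
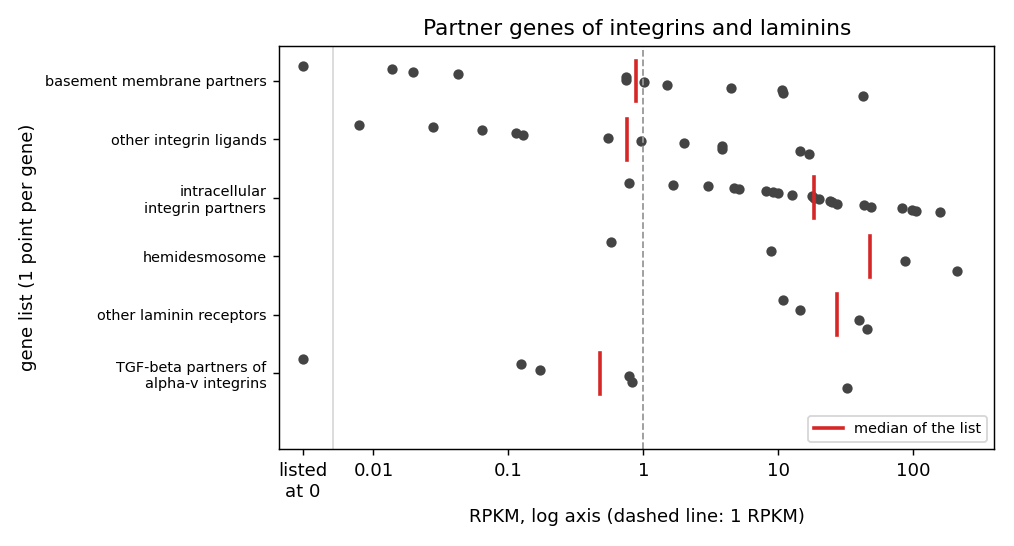
RNA level in RPKM on a log axis (horizontal) of the genes in 6 partner lists (vertical), 1 point per gene from 1 library, spread vertically only for sight, with red lines at the list medians, the dashed line at 1 RPKM and genes listed at 0 drawn left of the grey line. The inner partners of integrins, with a median of 18.5 RPKM, lie to the right of the basement membrane partners, with a median of 0.884 RPKM.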

How the data were processed

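The expression file holds 1 RPKM value per RefSeq gene, which the authors calculated from reads placed on hg18 with TopHat, per the deposited readme; the tool was Cufflinks, for which the submitters' processing notes name version 1.1.0. The handling of reads with several matches, the use of strand and the depth are not stated. Values were used as deposited from 1 library, so no test or interval was computed. Each gene symbol had 1 line. Members, pairs, trimers and partner lists are textbook sets, chosen with earlier results of these data known. All members are reported. For the partner lists the plan was to name the highest, the lowest and those completing a named complex. Some other genes of these lists are named too, and others are left out. A gene counted as present at 1 RPKM, with 0.5, 2, 5 and 10 RPKM as alternatives. Medians used log2(RPKM + 1), with a pseudocount of 0.1 and only genes above 0 as alternatives. Gene neighbours and overlaps came from RefSeq on GRCh38.p14, promoters from its table. Insertions and peaks were not used, nor were the planned protein sequences, for which no table was at hand. VCAM1, PF4, PPBP, GP9, LUM and MYOD1, named in the lists, were not analysed here, and some other items of the lists and trimers are not reported here. Counting was tested on simulated data. Python 3.11.15, pandas 2.3.3, numpy 2.4.6 and matplotlib 3.10.9 were used.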

Additional observations from a re-analysis of the deposited data

How the results depend on the processing

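The counts depended on the level taken as present. Of the 37 genes 20 reached 1 RPKM and 21 reached 0.5 RPKM, 16 reached 2, 12 reached 5 and 10 reached 10 RPKM. The number of integrin pairs was 9 at 0.5 and 1 RPKM, 8 at 2, 5 at 5 and 4 at 10 RPKM. The number of laminin trimers was 8 at 0.5 RPKM, 5 at 1, 3 at 2, 2 at 5 and 1 at 10 RPKM. The level of 10 RPKM was added after the data had been seen. A higher level can only lower these counts. The median of the members was 1.07 on the log2(RPKM + 1) scale, 0.26 with a pseudocount of 0.1 and 1.35 with only genes above 0 RPKM. The median over all genes was above it each time, at 1.54, 1.01 and 2.19. Summing the lines of a gene changed nothing, since each gene had 1 line. The alternatives for peaks and insertions at the members were not run, since no gene positions on hg18 were used. No paired analysis was possible because the RNA came from 1 library and no comparison was tested. The depth of the library is not known, so no limit can be set on the genes listed at 0.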
